A study of Mus musculus with 22 samples.

Results

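The genes described here are 35 genes that mark the cells of blood vessels, taken by symbol from a matrix of 23361 genes. They comprise 22 pan-endothelial genes, expressed by the cells that line all vessels, 4 arterial genes (Gja4, Gja5, Bmx and Sox17) and 9 mural genes of pericytes, smooth muscle and the vessel wall. All 35 were present, and all 35 had a mean FPKM of at least 0.1 over the 22 libraries, the filter that left 16978 genes for testing. FPKM counts sequenced fragments scaled by the length of a gene's exons and by the number of fragments mapped in the library, so levels of different genes are set side by side per unit of length. mRNA was sequenced from microdissected hippocampal CA1 tissue of F1 mice (Swiss Webster x DBA/C57BL6, all female), 1 library per mouse, fed ad libitum (AL) or kept on calorie restriction (CR) in which carbohydrates were reduced. The 4 groups were AL at 5 months (n = 5), CR at 5 months (n = 5), AL at 15 months (n = 6) and CR at 15 months (n = 6). The diets began at about the same age in all mice, so CR mice had been restricted for longer at 15 than at 5 months. Age and length of restriction therefore cannot be told apart between the CR groups, or where CR effects are compared between ages. The design asks how ageing alters CA1 expression under AL feeding and whether CR alters it at either age. The tissue was not sorted by cell type, so vessels contributed their RNA together with neurons and glia, and fewer vessel cells cannot be told apart from less RNA per vessel cell.

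Brain capillaries form the blood-brain barrier. Endothelial cells are sealed by tight junction proteins such as claudin-5 (Cldn5), occludin (Ocln) and ZO-1 (Tjp1), and they carry nutrients across with transporters such as the glucose transporter Slc2a1 and the lipid transporter Mfsd2a, while efflux pumps such as Abcb1a return foreign compounds to the blood. Pericytes, which share the basement membrane of the capillary endothelium, signal through the receptor Pdgfrb and express Rgs5, Abcc9, Vtn and Anpep, whereas smooth muscle cells ring the arterioles and contract with Acta2, Myh11 and Tagln. Arterial endothelium is set apart by the gap junction proteins connexin 37 (Gja4) and connexin 40 (Gja5), the kinase Bmx and the transcription factor Sox17.

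The genes Gja4 and Itm2a passed the test together when older CR mice were set against young AL mice, and their promoters are shown for that reason. Each is 300 bases from RefSeq (GRCm38.p6), running from 250 bases before the start of the gene to 50 bases after it. Capitals mark a 6-letter ETS motif, AGGAAG, and a 5-letter SOX motif, ACAAT, on either strand. Shorter or other forms of these motifs were not marked. ETS and SOX factors are families that endothelial cells use to drive their genes.
Gja4, chr4:127313990-127314289, minus strand: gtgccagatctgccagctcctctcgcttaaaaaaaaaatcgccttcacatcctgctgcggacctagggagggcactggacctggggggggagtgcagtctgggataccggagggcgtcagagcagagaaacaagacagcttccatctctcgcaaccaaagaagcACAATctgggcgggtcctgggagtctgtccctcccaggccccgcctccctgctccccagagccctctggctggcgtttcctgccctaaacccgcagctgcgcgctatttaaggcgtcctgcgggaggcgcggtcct
Itm2a, chrX:107403311-107403610, minus strand: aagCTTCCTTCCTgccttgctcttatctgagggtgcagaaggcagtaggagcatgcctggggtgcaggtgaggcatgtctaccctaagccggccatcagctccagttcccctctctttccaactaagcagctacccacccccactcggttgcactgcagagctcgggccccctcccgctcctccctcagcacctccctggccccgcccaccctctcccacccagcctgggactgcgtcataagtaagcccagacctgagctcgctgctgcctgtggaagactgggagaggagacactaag
The Gja4 promoter held 1 copy of ACAAT and 0 of AGGAAG, and the Itm2a promoter held 2 overlapping copies of AGGAAG on the other strand and 0 of ACAAT. Among 32851 mouse promoters of the same length, 35.4% held AGGAAG and 31.0% held ACAAT. A promoter was available for 26 members, which had 30 promoters. Counted by gene, and not by promoter as in the shares above, 11 of the 26 held AGGAAG and 7 held ACAAT.

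All 35 genes were detected in every group, over a wide range of levels. Slc2a1 was the most abundant, with a mean of 39.4 FPKM over the 22 libraries, followed by the pericyte matrix protein Vtn at 29.3 FPKM, the membrane protein Itm2a at 29.2 FPKM and the endothelial surface protein Ly6c1 at 27.9 FPKM. Ly6c1 has a close paralog, and the authors' multi-read weighting could divide reads between them. The arterial genes were scarce, from 1.57 FPKM for Sox17 and 1.21 FPKM for Gja4 to 0.432 FPKM for Bmx and 0.153 FPKM for Gja5, the lowest of the 35. Contractile genes were also low, at 3.28 FPKM for Tagln, 2.1 FPKM for Acta2 and 0.839 FPKM for Myh11. The libraries were prepared without strand information. Annotated genes on the other strand overlap Tagln, Eng, Egfl7, Slc2a1, Gja5, Sox17, Abcb1a, Tjp1, Edn1, Abcc9 and Nid1. Reads of these members could not be separated from those of the genes that overlap them. Gja4, Podxl, Vwf and Itm2a overlap no annotated gene.

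The spread between mice of a group was as follows. The median coefficient of variation of the 22 pan-endothelial genes was 16.1% in AL mice at 5 months, 19.2% in CR mice at 5 months, 17.1% in AL mice at 15 months and 16.2% in CR mice at 15 months. Over all genes tested the corresponding medians were 11.3%, 12.4%, 14.6% and 18.4%; the pan-endothelial median was above that of all genes in 3 of the 4 groups and below it in CR mice at 15 months. Mural genes in AL mice at 15 months had a median coefficient of variation of 89.7%, against 16.1%, 24.6% and 19.3% in the other groups. Without the library of AL mouse 1 at 15 months it was 22.8%.

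The library of AL mouse 1 at 15 months stood apart in its vessel wall genes. It was above the other 5 libraries of its group for 27 of the 35 genes. The smooth muscle actin Acta2 read 7.76 FPKM there and 0.473 to 1.97 FPKM in the other 5, a value 8.68 times their median. Tagln, an actin-binding protein of smooth muscle, read 10.8 FPKM against 1.68 to 3.46 FPKM, and Myh11, the smooth muscle myosin heavy chain, read 3.13 FPKM against 0.312 to 0.986 FPKM. The extracellular proteins and wall enzyme moved with them: Vtn was at 73.1 FPKM against 18.8 to 27.9 FPKM, Nid1, a basement membrane linker, at 3.62 FPKM against 0.578 to 1.02 FPKM, and Anpep, a membrane peptidase, at 3.53 FPKM against 0.391 to 0.874 FPKM.

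Not all mural genes were high in that mouse. Pericyte genes were divided. Rgs5, a regulator of G-protein signalling, and Abcc9, a subunit of the ATP-sensitive potassium channel, read 18.2 and 1.3 FPKM. These values lay inside the ranges of 14.4 to 18.5 and 1.02 to 1.68 FPKM of the other 5. Vtn and Anpep, also pericyte genes, were above all of the other 5, as given above. The pericyte receptor Pdgfrb was above them too, at 6.87 FPKM against 3.32 to 3.89 FPKM. Among arterial genes Bmx (0.982 against 0.269 to 0.444 FPKM) and Gja5 (0.28 against 0.0463 to 0.126 FPKM) were high, and Sox17 (2.59 FPKM) lay inside the range of 1.15 to 3.17 FPKM. Of the pan-endothelial genes Vwf was 3.23 times the median of the other 5, and the median ratio over all 22 was 1.31. Leptomeningeal fibroblast markers were high in the same library: 9 of 10 were above the other 5, their sum was 210.0 FPKM against 17.0 to 108.0 FPKM, and Col1a1, a fibrillar collagen, read 5.23 FPKM against 0.569 to 1.58 FPKM. Their part in the vessel gene values was not tested, and values without this library are given beside the results it moved.

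**Figure D1:**
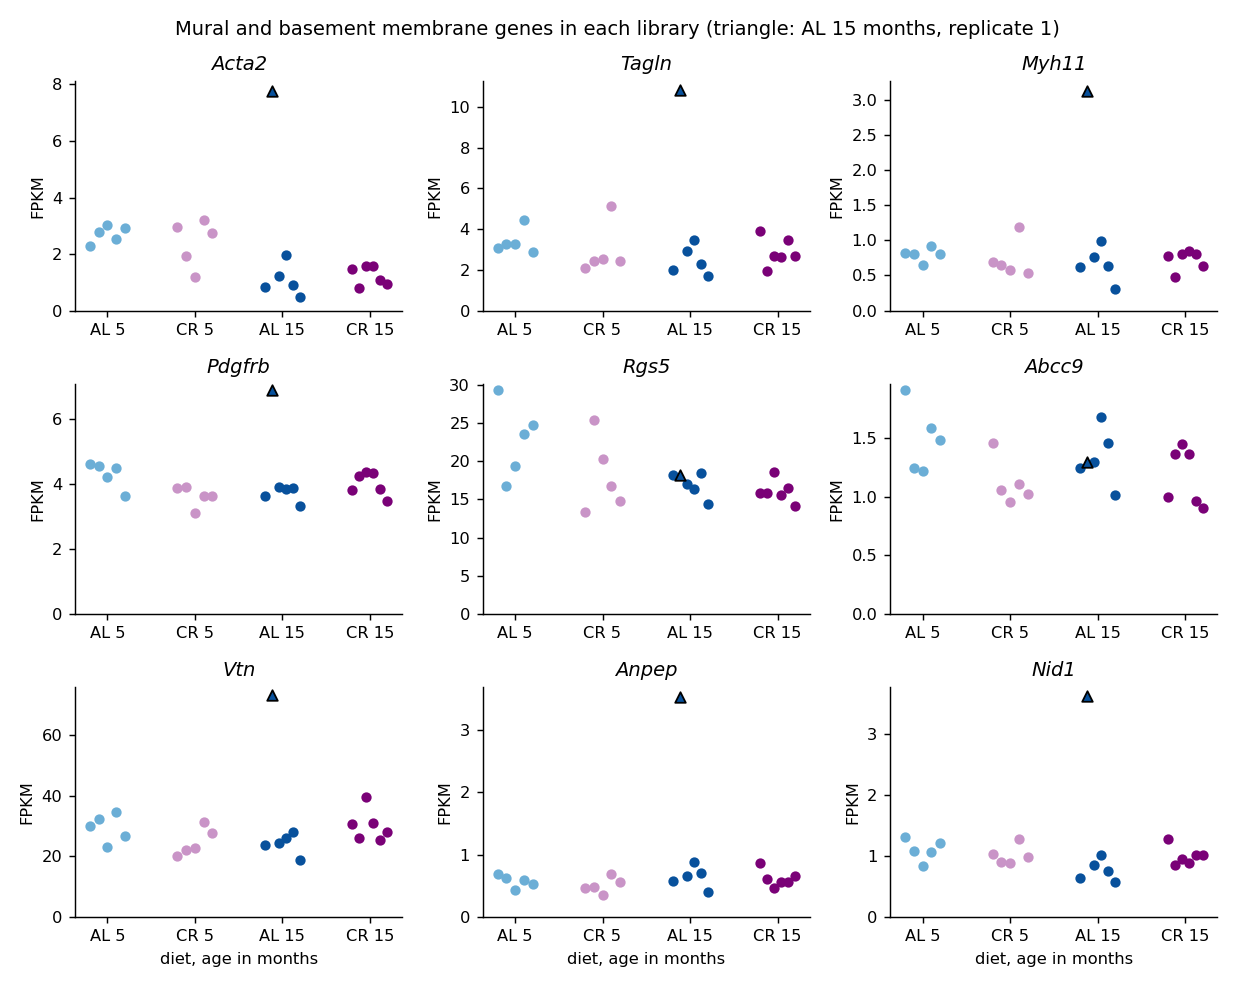
FPKM of the 9 mural and basement membrane genes in each library, on a linear axis from 0, by diet and age in months; each point is 1 mouse and the triangle is AL mouse 1 at 15 months. The triangle is above all other AL points at 15 months for 7 of the 9 genes, Rgs5 and Abcc9 being the exceptions.

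Other libraries and markers also bear on the comparisons. Choroid plexus markers summed to 5.01 to 38.5 FPKM in AL and 13.5 to 339.0 FPKM in CR mice at 5 months, and to 1.9 to 8.05 and 2.03 to 5.22 FPKM in AL and CR mice at 15 months. Markers of neocortex and subiculum summed to 105.0 to 152.0 FPKM in AL mice at 5 months and to 175.0 to 275.0 FPKM at 15 months, a range that did not overlap, and the CA1 marker Fibcd1 had a median of 53.4 FPKM at 5 months and 5.87 FPKM at 15 months under AL feeding. A region score, the mean log2 level of the neocortical and subicular markers minus that of the CA1 pyramidal markers, averaged -2.17 in AL mice at 5 months, -2.31 in CR mice at 5 months, -0.819 in AL mice at 15 months and -1.24 in CR mice at 15 months. None of the 10 choroid plexus, 10 neocortical and subicular or 8 CA1 markers was at 0 in every library. Whether they account for any vessel gene value was not tested.

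With age under AL feeding Vwf and Podxl were called higher and Itm2a lower, and the other vessel genes were not called. A gene was called at an adjusted p under 0.05 in limma, fitted to log2(FPKM + 0.1) of all 22 libraries and adjusted by Benjamini-Hochberg over all genes tested. Of the 35 genes 3 were called, 2 higher and 1 lower, all pan-endothelial. Over all genes 20.6% were called, 10.7% higher and 9.97% lower, so the share of vessel genes called (8.57%) was below the background. The median log2 fold change was 0.03 for pan-endothelial, 0.11 for arterial and -0.11 for mural genes, beside -0.0018 for all genes.

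Vwf encodes von Willebrand factor, the clotting glycoprotein that endothelial cells store and release. AL mice at 5 months had 1.47, 1.07, 0.954, 0.926 and 1.18 FPKM, and AL mice at 15 months ranged from 1.38 to 5.65 FPKM with a median of 1.92 FPKM. The older group overlapped the younger in its lowest library. The mean rose from 1.12 ± 0.219 (SD, n = 5) to 2.51 ± 1.58 FPKM (SD, n = 6), a log2 fold change of 0.96 ± 0.24 (SE, limma adjusted p = 0.0093; exact permutation p = 0.0087), and 6 of 6 older libraries were above the median of the younger. The highest library was AL mouse 1, without which the log2 fold change was 0.70 (limma adjusted p = 0.0069). With the region score as a covariate the log2 fold change was 0.73 and the adjusted p 0.27. With that covariate 101 of all 16978 genes were called, against 3502 without it.

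Podxl encodes podocalyxin, a sialomucin of the luminal endothelial surface. AL mice at 5 months had 7.02, 5.68, 4.73, 6.61 and 4.97 FPKM, and AL mice at 15 months ranged from 7.2 to 10.9 FPKM with a median of 8.8 FPKM. Every older library was above every younger, a separation that 14.0% of all genes showed between these groups and that none of the other 34 vessel genes did. The mean rose from 5.8 ± 0.998 to 8.79 ± 1.22 FPKM (log2 fold change 0.60 ± 0.14, limma adjusted p = 0.0046; exact permutation p = 0.0043). Leaving out AL mouse 1 gave a log2 fold change of 0.53 (limma adjusted p = 0.012), and with the region score as a covariate it was 0.23 (adjusted p = 0.46).

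Itm2a, a type II membrane protein abundant in brain endothelium, moved the other way. AL mice at 5 months were tightly grouped, at 34.8, 36.8, 34.7, 36.2 and 38.5 FPKM, and AL mice at 15 months ranged from 23.8 to 37.3 FPKM with a median of 27.2 FPKM. AL mouse 1 was the only older library inside the younger range, since the other 5 were at 30.4 FPKM or less. The mean fell from 36.2 ± 1.56 to 28.4 ± 5.01 FPKM (log2 fold change -0.36 ± 0.11, limma adjusted p = 0.027; exact permutation p = 0.017). Leaving out AL mouse 1 gave a log2 fold change of -0.45 (limma adjusted p = 0.0065). The call was lost when AL mouse 1 or 4 at 5 months, or AL mouse 0, 3 or 5 at 15 months, was left out (adjusted p up to 0.065), under quantile normalization (0.059), with a replicate block (0.055), and with the region score (0.13) or the choroid plexus score (0.12) as a covariate.

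**Figure D2:**
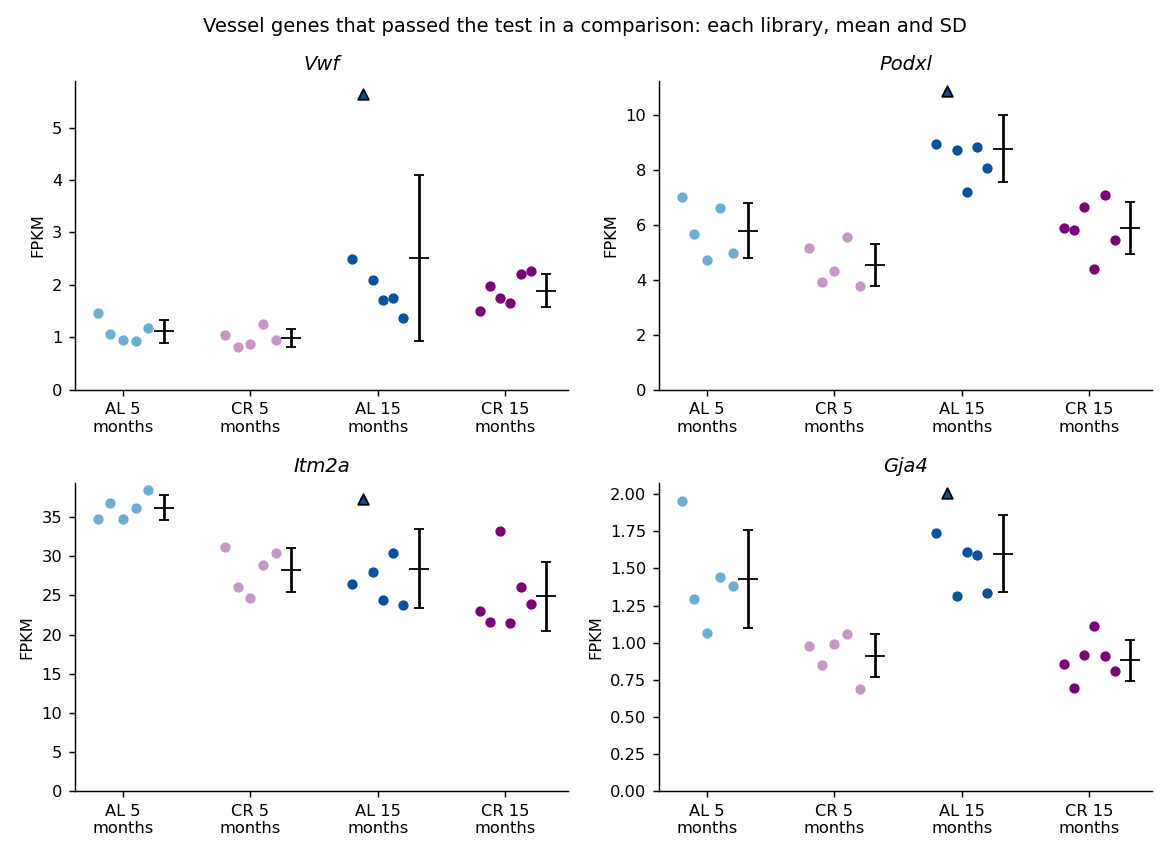
FPKM of Vwf, Podxl, Itm2a and Gja4 in each library by group, on linear axes from 0; points are mice, the triangle is AL mouse 1 at 15 months, and bars are the mean and SD of each group (n = 5 at 5 months, n = 6 at 15 months). Vwf and Podxl are higher in AL mice at 15 than at 5 months, Podxl and Gja4 are lower in CR than in AL mice at 15 months without overlap, and Itm2a is highest in AL mice at 5 months.

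The barrier genes were not called with age in the fit of all 22 libraries. The fold changes of Cldn5, Ocln, Tjp1, Slc2a1, Mfsd2a, Slco1a4 and Abcb1a had adjusted p-values over the threshold there. The group means of Slc2a1 and Cldn5 were 41.5 and 19.0 FPKM at 5 months and 41.0 and 17.95 FPKM at 15 months in AL mice. The mean of Ocln was 3.67 FPKM at 5 months and 2.75 FPKM at 15 months, and Ocln was called when only these groups were fitted. Tek, the angiopoietin receptor, had a mean of 2.93 FPKM at 5 months and 3.59 FPKM at 15 months (log2 fold change 0.29 ± 0.13, limma adjusted p = 0.13). None of the 4 arterial genes was called: the log2 fold changes were 0.16 ± 0.15 for Gja4, -0.47 ± 0.24 for Gja5, 0.05 ± 0.21 for Bmx and 0.19 ± 0.27 for Sox17 (limma adjusted p = 0.45, 0.16, 0.89 and 0.66).

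The calls of mural genes with age moved with AL mouse 1 and with other choices. With that library limma called 0 of 9, and 1 of 9, Rgs5, had an unadjusted p under 0.05, as did 35.2% of all genes (22.8 FPKM at 5 months and 17.1 FPKM at 15 months, log2 fold change -0.39 ± 0.14, limma adjusted p = 0.061). Rgs5 was called lower under 5 alternatives that kept this 15-month library: a common median, the choroid plexus score as a covariate, and without AL mouse 1, CR mouse 0 or CR mouse 1 at 5 months (limma adjusted p from 0.026 to 0.048). Without AL mouse 1 at 15 months 2 of 9 were called, both lower in older mice, where 17.0% of all genes were. That library had been singled out for its high values of vessel genes, Acta2, Nid1 and Gja5 among them. Fits without it are therefore not independent tests of whether these genes were lower with age. Acta2 stood at 2.3, 2.79, 3.04, 2.53 and 2.91 FPKM in AL mice at 5 months and at 0.473 to 1.97 FPKM in the 5 remaining mice at 15 months (log2 fold change -1.38 ± 0.29, limma adjusted p = 0.0041). With the library the log2 fold change of Acta2 was -0.90 ± 0.44 (limma adjusted p = 0.15), and it was also called with the leptomeninges score as a covariate (limma adjusted p = 0.0068). Nid1 gave -0.48 ± 0.15 without it (limma adjusted p = 0.034) and -0.13 ± 0.30 with it, and the arterial gene Gja5 was also called lower without it (-0.64 ± 0.21, limma adjusted p = 0.040). The median log2 fold change of the mural genes moved from -0.11 to -0.30.

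At 15 months Gja4 and Podxl were called lower in CR than in AL mice, and these were the only vessel genes called. Thus 2 of 35 (5.71%) were called, both lower, beside 0.742% of all genes, 0.33% higher and 0.412% lower. At an unadjusted p under 0.05 there were 3 vessel genes (8.57%), below the 17.1% of all genes. Estimates were below 0 for 25 of 35 genes with a median log2 fold change of -0.09, but without AL mouse 1 for 16 of 35 with a median of 0.02.

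Gja4 forms gap junctions of arterial endothelium. AL mice at 15 months ranged from 1.31 to 2.01 FPKM with a median of 1.6 FPKM, and CR mice at 15 months from 0.695 to 1.11 FPKM with a median of 0.884 FPKM. The 2 groups did not overlap, as was the case for 0.984% of all genes. The mean fell from 1.6 ± 0.261 to 0.884 ± 0.138 FPKM (SD, n = 6 each), a log2 fold change of -0.79 ± 0.14 (limma adjusted p = 0.020), and the exact permutation p of 0.0022 was the smallest that 6 against 6 libraries allow. With AL mouse 1 left out it was -0.72 (limma adjusted p = 0.046). The adjusted p was 0.052 without AL mouse 0 and 0.051 without AL mouse 4 at 15 months, and under 0.05 without any other library. It was 0.058 with the region score as a covariate and 0.11 when only these groups were fitted. Over all 16978 genes these fits called 14 and 0, against 126 without these changes.

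Podxl in AL mice at 15 months, between 7.2 and 10.9 FPKM as given above, was higher in every library than in CR mice at 15 months, which ranged from 4.4 to 7.1 FPKM with a median of 5.84 FPKM. The mean of the CR mice was 5.88 ± 0.947 FPKM, a log2 fold change of -0.58 ± 0.13 (limma adjusted p = 0.042; exact permutation p = 0.0022, the smallest possible). This call was close to the threshold. With AL mouse 1 left out it was -0.51 (limma adjusted p = 0.082), and it was kept in 4 of the 12 fits that left out a library of these groups, with an adjusted p of 0.12 at most. The call was also lost under quantile normalization (0.0504), with the region score (0.10) or that of leptomeningeal markers (0.056) in the model, and when only these groups were fitted (0.16). Group means of Podxl in CR mice were 4.55 FPKM at 5 months and 5.88 FPKM at 15 months, beside 5.8 and 8.79 FPKM in AL mice.

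The other arterial genes were not called at 15 months. Sox17 had a mean of 1.96 FPKM in AL and 1.39 FPKM in CR mice (log2 fold change -0.41 ± 0.26, limma adjusted p = 0.43), Bmx 0.476 and 0.422 FPKM (-0.06 ± 0.20, adjusted p = 0.91), and Gja5 0.119 and 0.159 FPKM (0.29 ± 0.22, adjusted p = 0.52). Of these Gja5 is the other arterial connexin, and its estimate had the opposite sign to that of Gja4. No mural gene was called, with log2 fold changes from -0.41 for Anpep to 0.05 for Vtn. Without AL mouse 1 at 15 months 0 of 9 were called as well, with log2 fold changes from -0.18 for Abcc9 to 0.35 for Nid1. The mural median moved from -0.12 to 0.16. Of the barrier genes Cldn5 averaged 17.95 FPKM in AL and 23.1 FPKM in CR mice, and Ocln 2.75 and 3.94 FPKM, differences that were not called. Ocln is also expressed by choroid plexus epithelium. Choroid plexus markers summed to 1.9 to 8.05 FPKM in AL and 2.03 to 5.22 FPKM in CR mice at 15 months, and their part in the Ocln values was not tested.

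**Figure D3:**
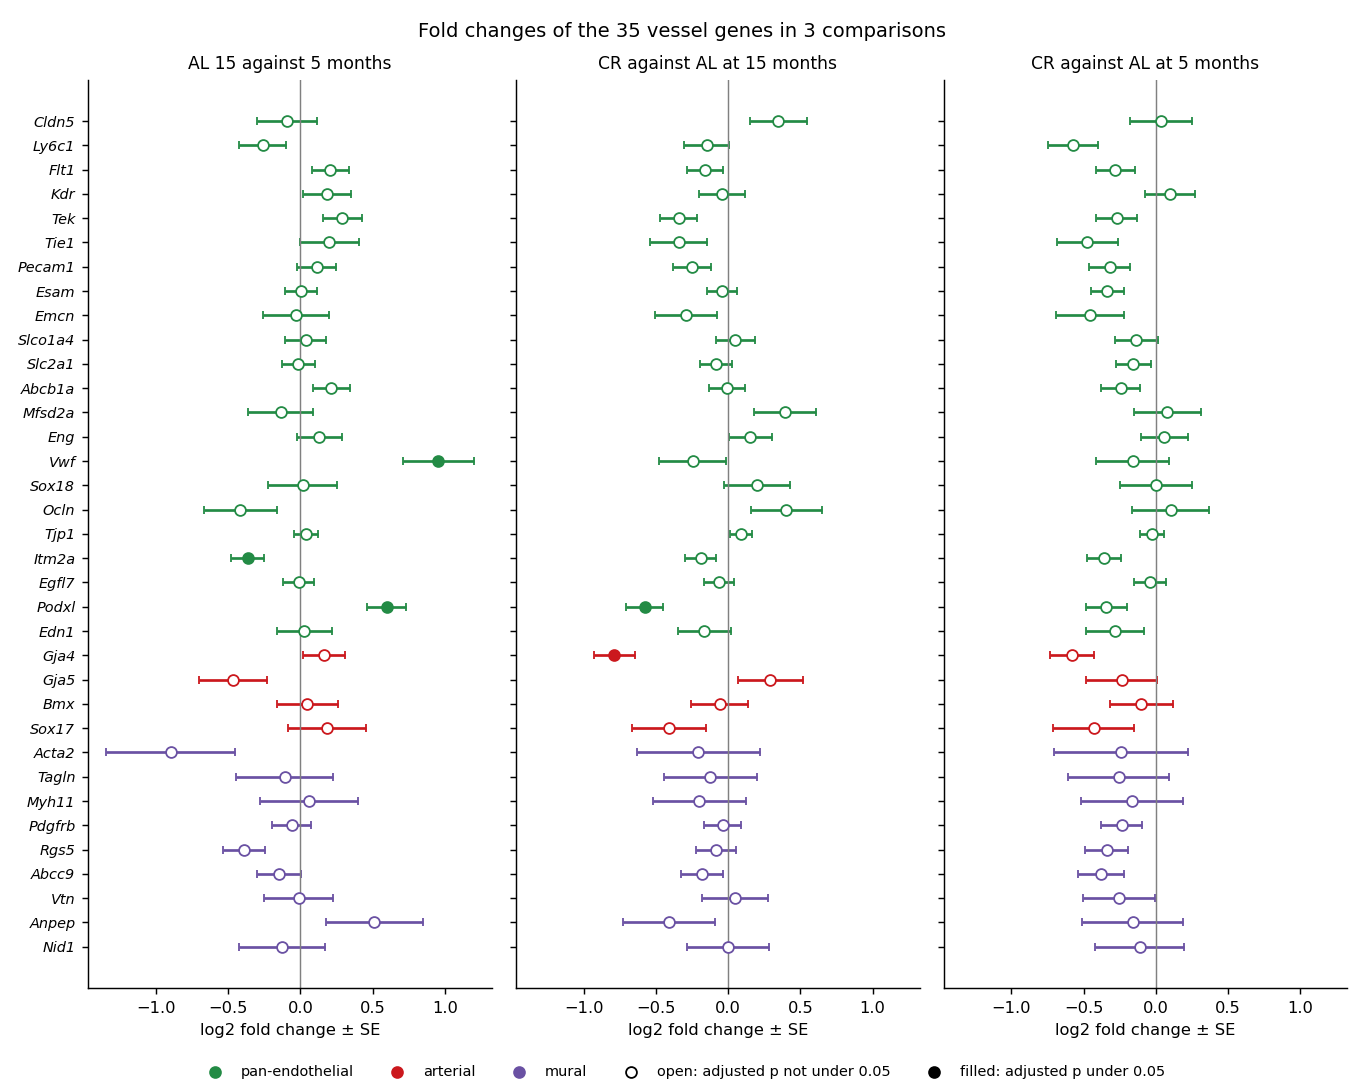
Log2 fold change with its SE (limma) of all 35 genes in 3 comparisons, coloured by class; filled points have an adjusted p under 0.05 and open points do not. Filled points are Vwf, Itm2a and Podxl for age under AL, and Podxl and Gja4 for CR at 15 months; at 5 months all are open and 29 of 35 lie left of 0.

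At 5 months CR was associated with lower estimates for most vessel genes, and none was called. limma called 0.0% of all genes in this comparison, and 0 of 35 vessel genes, so no vessel gene could be singled out. At an unadjusted p under 0.05 there were 10 vessel genes (28.6%), all lower in CR, beside 4.65% of all genes, 2.16% being lower. These were Ly6c1, Flt1, Tie1, Pecam1, Esam, Itm2a and Podxl among 22 pan-endothelial genes, Gja4 among 4 arterial genes, and Rgs5 and Abcc9 among 9 mural genes. Their count ranged from 4 to 13 when 1 library at 5 months was left out, and was 4 with the choroid plexus score as a covariate. Estimates were below 0 for 16 of 22 pan-endothelial, 4 of 4 arterial and 9 of 9 mural genes, with medians of -0.20, -0.33 and -0.24. Within a library these genes are not independent of each other. Markers of some other cell types had lower estimates in the same comparison: 8 of 8 for oligodendrocytes (median log2 fold change -0.50), 8 of 8 for microglia (-0.22) and 7 of 8 for astrocytes (-0.13), beside 50.2% of all genes. For neocortex and subiculum 7 of 10 were lower (-0.08). Estimates were above 0 for 10 of 10 choroid plexus markers (1.68), 6 of 10 leptomeningeal (0.09), 3 of 5 erythrocyte (0.18) and 4 of 8 CA1 markers (0.01). The part of these cell types in the vessel gene values was not tested.

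Gja4 and Itm2a were the vessel genes whose groups did not overlap at that age. Gja4 read 1.96, 1.3, 1.07, 1.44 and 1.38 FPKM in AL mice and 0.978, 0.849, 0.995, 1.06 and 0.69 FPKM in CR mice, with the highest CR library just under the lowest AL library. Itm2a read 31.1, 26.1, 24.7, 28.9 and 30.4 FPKM in CR mice, each below the 34.7 FPKM of the lowest AL library. A lack of overlap was seen in 1.36% of all genes and in these 2 of the 35. The log2 fold changes were -0.58 ± 0.15 and -0.36 ± 0.12 (limma adjusted p = 0.82 and 0.93; exact permutation p = 0.0079 for each, the smallest that 5 against 5 libraries allow).

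Ly6c1 had the second smallest p of the 35 at that age, after Gja4. AL mice read 36.1, 29.6, 29.6, 40.1 and 34.5 FPKM and CR mice 22.6, 21.4, 21.5, 31.0 and 18.4 FPKM, and CR mouse 3 alone reached into the AL range (log2 fold change -0.57 ± 0.17, limma adjusted p = 0.90; exact permutation p = 0.024). That mouse was the highest of its group for 25 of the 35 genes. Cldn5, Kdr and Ocln were among the 6 genes with estimates above 0, and the junction protein Ocln was at 7.1 FPKM in CR mouse 4, whose choroid plexus markers summed to 339.0 FPKM, against 2.57 to 4.38 FPKM in the rest of that group.

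The comparisons of CR with AL at 5 and at 15 months share no library. Genes of 1 library are not independent of each other, so the counts of genes below are not counts of separate observations. Estimates were below 0 at both ages for 24 of the 35 vessel genes (68.6%), beside 27.0% of all genes tested, and for 14 of 22 pan-endothelial, 3 of 4 arterial and 7 of 9 mural genes. Without AL mouse 1 at 15 months the count was 16 of 35 (45.7%), beside 27.1% of all genes, with 11 of 22 pan-endothelial, 2 of 4 arterial and 3 of 9 mural genes, the last being Rgs5, Abcc9 and Anpep. The interaction of age and diet was called by limma for 0 of 35 vessel genes and 0.0% of all genes, and 0 of 35 had an unadjusted p under 0.05 for it, beside 7.66% of all genes. With AL mouse 1 left out 6 had an unadjusted p under 0.05, Vtn, Pdgfrb, Gja5, Ly6c1, Nid1 and Esam, beside 7.6% of all genes, and 0 were called. High values of Vtn, Pdgfrb, Gja5 and Nid1 were among those for which that library was singled out, so this is not an independent test of them.

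**Figure D4:**
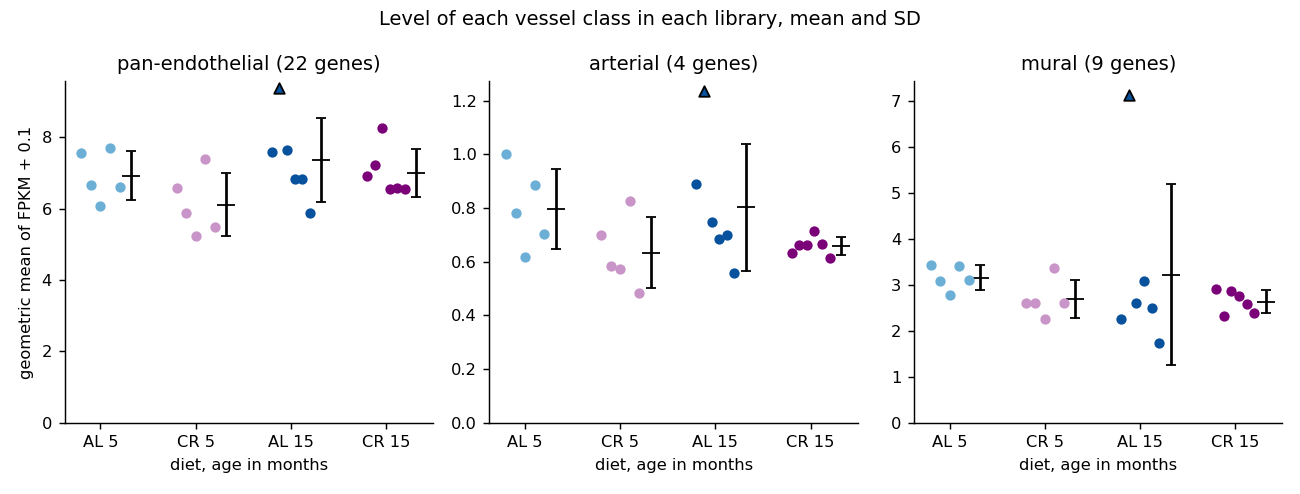
Geometric mean of FPKM + 0.1 over the genes of each class in each library by group, with the mean and SD; points are mice and the triangle is AL mouse 1 at 15 months. Group means of the pan-endothelial class lie between 6.11 and 7.35, those of the arterial class between 0.633 and 0.803 and those of the mural class between 2.64 and 3.23, with the triangle at 7.15 for the mural class.

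The older CR mice were also set against the young AL mice, whose libraries enter the comparisons above as well. Of the 35 genes 2 were called, Itm2a and Gja4, both lower, where 3.12% of all genes were called, 1.38% higher and 1.73% lower. Itm2a ranged from 21.4 to 33.2 FPKM with a median of 23.5 FPKM in the older CR mice and was below all 5 young AL libraries, a separation shown by 2.94% of all genes (log2 fold change -0.56 ± 0.11, limma adjusted p = 0.0099; exact permutation p = 0.0043). Gja4 gave -0.62 ± 0.15 (limma adjusted p = 0.024; exact permutation p = 0.0065), and 6 of 6 older CR libraries were below the median of the young AL mice. The call of Gja4 was lost without AL mouse 0, 3 or 4 at 5 months (limma adjusted p up to 0.060). It was also lost with the region score as a covariate (0.071) and when only these groups were fitted (0.084). That of Itm2a was lost with the choroid plexus score (0.10). Over all 16978 genes the region score left 117 calls, the separate fit 218 and the choroid plexus score 75, against 529 without these changes. Without AL mouse 1 at 15 months in the fit, which then estimated a smaller spread, Vwf (0.71, limma adjusted p = 0.017) and Acta2 (-1.10, limma adjusted p = 0.037) were also called, as they were with the leptomeninges score as a covariate and when only these groups were fitted. Rgs5 was also called without AL mouse 1 or CR mouse 1 at 5 months.

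Between CR mice at 15 and 5 months limma called 0 of 35 vessel genes, where 3.36% of all genes were called, and 5 had an unadjusted p under 0.05, beside 18.0% of all genes. Vwf and the efflux pump Abcb1a came nearest. Vwf read 1.05, 0.823, 0.88, 1.25 and 0.94 FPKM at 5 months and 1.51 to 2.26 FPKM with a median of 1.86 FPKM at 15 months, without overlap, as for 3.26% of all genes (log2 fold change 0.87 ± 0.24, limma adjusted p = 0.052; exact permutation p = 0.0022). Abcb1a had means of 4.58 and 6.21 FPKM, also without overlap (0.45 ± 0.13, limma adjusted p = 0.059). Without AL mouse 1 at 15 months in the fit both were called (limma adjusted p = 0.0030 and 0.036), as they were with the leptomeninges score as a covariate. Vwf was also called with a pseudocount of 0.01, a common median, quantile normalization and in a fit of these groups only, and without AL mouse 5 at 15 months, and Abcb1a without 4 other single libraries. The log2 fold changes of Vwf with age were thus 0.96 under AL and 0.87 under CR, and the test of their difference was not called.

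Other genes of the vessel were described by lists of the same kind. With age under AL, 12 of 94 such genes were called (12.8%), below the 20.6% of all genes. Among them 4 of 30 further endothelial and barrier genes were called, of which Rasip1 (0.57, limma adjusted p = 0.027), an effector of endothelial lumen formation, and Lef1 (0.94, limma adjusted p = 0.047), a transcription factor of Wnt signalling, were higher, and the lactate transporter Slc16a1 (-0.40, limma adjusted p = 0.0076) and the Wnt inhibitor Apcdd1 (-0.61, limma adjusted p = 0.044) were lower. Of 15 further arterial and Notch genes 2 were called, the chemokine receptor Cxcr4 lower (-1.29, limma adjusted p = 0.0025) and the phosphatase Alpl higher (0.67, limma adjusted p = 0.017). Of 8 venous and activation genes tested 1 was called, the chemokine-binding receptor Darc (0.49, limma adjusted p = 0.044), and of 18 further mural genes 1, Art3, lower (-0.90, limma adjusted p = 0.0071). Among 12 vascular ligands Angpt1, the ligand of Tek, was higher (0.94, limma adjusted p = 0.011) and the placental growth factor Pgf lower (-0.61, limma adjusted p = 0.017). The laminin chains Lama4 (1.46, limma adjusted p = 0.0017) and Lamb1 (-0.67, limma adjusted p = 0.020) were called among 11 basement membrane genes. Comparing CR with AL, limma called 0 of these 94 genes at either age, and 13 (13.8%) had an unadjusted p under 0.05 at 15 months and 13 (13.8%) at 5 months, beside 17.1% and 4.65% of all genes. At 5 months estimates were below 0 for 21 of 30 endothelial and barrier genes and 13 of 18 mural genes of these lists. They were below 0 for 7 of 15 arterial and Notch genes, 3 of 8 venous and activation genes, 6 of 12 ligands and 6 of 11 basement membrane genes. In older CR against young AL mice 2 of the 94 were called (2.13%, beside 3.12% of all genes): the transferrin receptor Tfrc was lower (-0.54, limma adjusted p = 0.017) and Vegfa higher (0.47, limma adjusted p = 0.038), and with age under CR 1 was called (1.06%, beside 3.36% of all genes), the Notch ligand Dll4, higher (0.64, limma adjusted p = 0.046).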

How the data were processed

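mRNA was sequenced from frozen CA1 microdissections of 22 mice. The FPKM values were made by the authors and deposited as 1 matrix: reads were aligned to mm10 with TopHat, likely PCR duplicates were removed with Picard, and Cufflinks gave FPKM with bias and multi-read corrections (the gene annotation release is not given in the sources used here). Read counts could not be recovered, since at most 0.288% of low genes shared a common ratio between libraries in 4 pairs checked, so the depth per library is unknown. Median FPKM over the tested genes ran from 8.01 to 8.65 per library, 18281 to 19175 genes were above 0, and 0 pairs of libraries were identical.

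log2(FPKM + 0.1) was fitted, for the 16978 genes averaging 0.1 FPKM or more, with limma 3.58.1 (R 4.3.3), 1 coefficient for each of 4 groups, eBayes with an intensity trend, 6 contrasts, two-sided tests and Benjamini-Hochberg adjustment over all genes tested. Fold changes on this scale understate changes of low genes. Single genes were also tested by exact two-sided permutation of log2 group means. The steps were tested on simulated data. Positions are from GENCODE M21 (GRCm38) and promoters from RefSeq. No set test was run.

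The 35 members and the other gene lists were chosen with earlier results of these data known. Fold changes are printed for members called in a contrast, for the 4 arterial genes in the age contrast and in the CR contrast at 15 months, and for members singled out after their values were seen (Tek, Rgs5, Acta2, Nid1, Ly6c1, Abcb1a); in other lists at most 4 genes are named, those with the smallest p. Groups and replicate numbers came from the sample labels. The numbers do not pair mice: over 31 pairs of libraries that share a number, the correlation of deviations from the group mean ran from -0.139 to 0.163 and was over 0.1 in 2.

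Alternatives were a pseudocount of 1 or 0.01, another filter on low values, a common median, quantile normalization, no trend, a separate fit of the 2 groups, a replicate block, the region, leptomeninges or choroid plexus score as a covariate, and each library left out.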

Additional observations from a re-analysis of the deposited data

Results flagged for a closer look

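Each group of values of each gene was examined for a library far from the rest by Dixon's ratio of the gap to the range. Of 140 groups of values, 19 held such a library, where chance gives about 1 in 20. All 19 were the highest library of their group, and genes of 1 library are not independent of each other.

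Of the 19, 12 were the library of AL mouse 1 at 15 months. Its mural values were 7.758 FPKM for Acta2, 10.82 FPKM for Tagln, 3.127 FPKM for Myh11, 6.871 FPKM for Pdgfrb, 73.08 FPKM for Vtn, 3.529 FPKM for Anpep and 3.615 FPKM for Nid1. Its arterial values were 0.2801 FPKM for Gja5 and 0.982 FPKM for Bmx, and its pan-endothelial values 7.946 FPKM for Pecam1, 8.413 FPKM for Abcb1a and 5.648 FPKM for Vwf. Of the pericyte genes, Pdgfrb, Vtn and Anpep were among these flagged values, and Rgs5 and Abcc9 were not.

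CR mouse 2 at 15 months was far above its group for Ly6c1 (36.94 FPKM), Pecam1 (6.727 FPKM) and Emcn (6.689 FPKM), which are pan-endothelial. At 5 months AL mouse 3 stood out for Pecam1 (7.189 FPKM) and Tagln (4.455 FPKM), and CR mouse 3 for Tagln (5.156 FPKM) and Myh11 (1.188 FPKM).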

How the results depend on the processing

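The count of called vessel genes was small, so single genes moved it by over 1.5 times. For age under AL the count of 3 became 0 with the region score as a covariate, and 2 to 6 with a library left out, 6 being without AL mouse 1 at 15 months. For CR at 15 months the count of 2 became 1 under quantile normalization, 0 in a separate fit of these groups, 0 with the region score and 1 with the leptomeninges score, and 0 to 2 with a library left out. For older CR against young AL mice the count of 2 became 1 with the region score, 4 with the leptomeninges score and 1 with the choroid plexus score, and 1 to 4 with a library left out. For age under CR the count of 0 became 1 with a pseudocount of 0.01, with a common median, under quantile normalization and in a separate fit, 2 with the leptomeninges score, and 0 to 2 with a library left out. In these separate fits and left-out fits fewer samples were used, and otherwise the cause was not tested. Calls over all 16978 genes also fell in several of these settings. For age under AL they fell from 3502 to 101 with the region score. For CR at 15 months they fell from 126 to 14 with the region score and 0 in the separate fit. For older CR against young AL mice they fell from 529 to 117 with the region score and 75 with the choroid plexus score. For CR at 5 months and the interaction the count stayed at 0 under every alternative run. No called fold change reversed under any of its 34 alternatives.

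With a replicate block, which does not pair mice here, the counts were 2 for age under AL, where Itm2a lost its call (adjusted p = 0.055 in limma), and 2 for CR at 15 months, and the other counts were as in the report. The number of mice limits these results: with 5 or 6 per group and an unknown depth, a lack of a call does not show that a level was unchanged.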
